A study of Mus musculus with 2 samples.

Results

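Genes of the BCL2 family were described in mouse peritoneal macrophages, without treatment (NT) or after interleukin-4 (IL-4). The 10 genes were taken by name: the survival genes Bcl2, Bcl2l1, Mcl1 and Bcl2a1d, the effectors Bax and Bak1, and the death genes Bid, Bcl2l11, Bbc3 and Pmaip1. All 10 were listed in both libraries, among 15623 genes listed in either. Cells of both groups came from wild-type C57BL/6 mice given 4% thioglycolate into the peritoneal cavity 4 to 5 days before lavage. They adhered for 4 h, which removed unattached cells, and were starved in 0.5% serum. The NT group held 1 library, and the IL-4 group held 1 library of cells stimulated for 6 h. The study used this comparison to find genes regulated by IL-4, a cytokine of type 2 immunity that acts through the transcription factor Stat6 and turns macrophages to the alternative (M2) state. With 1 library in each group no difference was checked against replicates, and each test compares the libraries, not the conditions.

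The BCL2 family decides whether the outer membrane of the mitochondrion stays closed. Bax and Bak1 form the pores that release cytochrome c, the survival proteins hold them and their activators in check, and the BH3-only proteins, which share with the rest of the family only a short BH3 helix, relieve that restraint or activate the effectors directly. In myeloid cells, Mcl1 and the A1 proteins encoded by the Bcl2a1 genes are known as survival factors, and both proteins turn over quickly, so that they depend on continued transcription.

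The NT library held 11035641 expected counts (the estimated reads assigned to genes) over 14842 genes, and the IL-4 library 11250099 over 14717 genes. Levels are given as FPKM, which are scaled for transcript length and depth. The floor set here, 3 counts, was 0.272 CPM (counts scaled to library size) in NT and 0.267 in IL-4. One field of the labels gives bone marrow as the tissue, whereas the source is named as peritoneal macrophages. All 7 macrophage markers examined were present, with a summed level of 14899 FPKM in NT and 14763 in IL-4, most of it Lyz2 at 11289 and 10811. Of these markers, Csf1r was called higher in IL-4 (145 and 270 FPKM, a log2 ratio of 0.90) and Cd14 lower (1219 and 591 expected counts, a log2 ratio of -1.07). Summed levels of the other marker lists were 2.18 and 1.78 FPKM for 6 T cell genes, 6.52 and 5.77 for 5 B cell genes, 8.86 and 5.15 for 6 neutrophil genes, 5.71 and 3.56 for 6 eosinophil and mast cell genes, and 34.2 and 29.1 for 6 mesothelial and fibroblast genes. Of these, Ly6g, S100a9, Mpo, Camp and Epx were in neither table. All 5 of these sums were lower in the IL-4 library, and their part in the results below was not tested.

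Bcl2a1d has near-identical copies on chromosome 9, Bcl2a1a and Bcl2a1b, with which it can share reads. Their coding sequences, each of 516 bases, differed at 11 positions between Bcl2a1a and Bcl2a1b, at 7 between Bcl2a1a and Bcl2a1d, and at 6 between Bcl2a1b and Bcl2a1d. Of the 31-base words of the Bcl2a1d transcript, 89.1% also occurred in another copy or in the related gene Bcl2a1c. The share was 73.3% for Bcl2a1b and 79.6% for Bcl2a1a. The first 120 coding bases are shown because 7 of the 12 variable positions lie there, and within the coding sequence only reads that cover such a position separate the copies. Capitals mark the variable positions, and the sequences run 5′ to 3′ from the start codon (GENCODE transcripts on GRCm38: Bcl2a1a at chr9:88957051-88957170, plus strand, Bcl2a1b at chr9:89199360-89199479, plus strand, and Bcl2a1d at chr9:88731600-88731719, minus strand).
Bcl2a1a: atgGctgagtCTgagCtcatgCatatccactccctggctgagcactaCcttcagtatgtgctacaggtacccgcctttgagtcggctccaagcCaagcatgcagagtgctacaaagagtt
Bcl2a1b: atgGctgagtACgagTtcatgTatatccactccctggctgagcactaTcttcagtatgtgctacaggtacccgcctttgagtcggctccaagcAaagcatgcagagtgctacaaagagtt
Bcl2a1d: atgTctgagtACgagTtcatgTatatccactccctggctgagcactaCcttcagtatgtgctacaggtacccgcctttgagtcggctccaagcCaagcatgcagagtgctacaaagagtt
In this window Bcl2a1d differs from Bcl2a1b at only 3 positions, and the coding sequences as a whole were 98.8% identical.

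Within each library the members spanned over 2 orders of magnitude. In NT, Mcl1 was the most abundant at 167 FPKM, followed by Bax at 137, Bak1 at 96.0, Bcl2l1 at 40.5, Bcl2a1d at 23.8, Bid at 17.2, Bbc3 at 10.2, Bcl2l11 at 9.66, Pmaip1 at 3.93 and Bcl2 at 1.38. Exact Poisson 95% intervals of neighbours in this order overlapped only for Bbc3 and Bcl2l11. In the IL-4 library Bax stood first at 144 FPKM, above Mcl1 at 107 and Bak1 at 96.2. Bcl2l1 at 30.5 and Bcl2a1d at 30.1 were then not separated by counting error, and Bid at 17.2, Bcl2l11 at 11.5, Bbc3 at 7.60, Pmaip1 at 3.37 and Bcl2 at 1.36 followed in order. The namesake of the family was thus the rarest member in both libraries. Intervals here cover counting error only, and since PCR copies were not marked by molecular identifiers, reads are not separate molecules and the intervals may be too narrow.

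**Figure D1:**
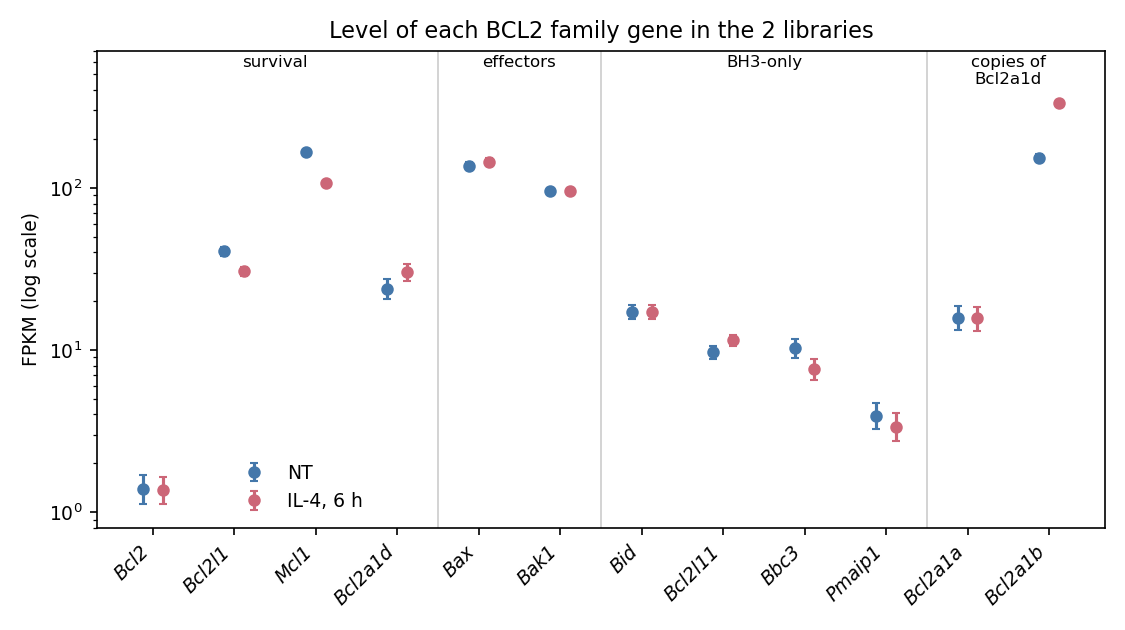
FPKM of the 10 members and of Bcl2a1a and Bcl2a1b in the NT and IL-4 libraries, on a log axis, 1 library each, with exact Poisson 95% intervals that cover counting error only. Mcl1 sits at 167 and 107 FPKM, Bax and Bak1 overlap between the libraries, and Bcl2a1b sits at 154 and 335.

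None of the 10 members was called between the libraries, where a call needed a log2 ratio of 0.75 or more in either direction, an exact p of 0.05 or less and a Benjamini-Hochberg (BH) adjusted value of 0.5 or less. Over all 15593 genes tested, 4.07% were called higher and 6.28% lower in the IL-4 library. At an unadjusted exact p of at most 0.05, without the condition on size, 5 of the 10 members passed, and these were the 5 whose 95% interval excluded 0. Of the 8463 genes with at least 200 reads over both libraries, a depth that all members reached, 58.3% had such an interval. The median size of the log2 ratio was 0.23 for the members and 0.24 for those genes. The members therefore moved about as much as other genes of this depth.

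Mcl1 (chromosome 3, 95656944 to 95663179, GRCm38) encodes a survival protein that holds Bak1 and the BH3-only proteins. It had 6510 expected counts in NT and 4248 in IL-4, or 167 and 107 FPKM. As IL-4 over NT, the log2 ratio was -0.64 (95% interval -0.70 to -0.59), so that the level was 36.0% lower in the IL-4 library. This was the largest difference of any member, and 8.01% of the genes with at least 200 reads had a ratio as low or lower. Its FPKM rank went from 387 in NT to 670 in IL-4. The BH-adjusted value of the exact test was 7.95e-114, but the ratio missed the threshold on size. With the fold change over 1.5 and the adjusted limit of 0.05 from the study's methods, Mcl1 was the only member called, as lower. With these limits, 7.74% of all genes tested were called lower.

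Bcl2l1 (chromosome 2, 152758732 to 152833803) encodes BCL-XL, which restrains both effectors. It had 1134 and 861 expected counts, or 40.5 FPKM in NT and 30.5 in IL-4. The log2 ratio was -0.42 (-0.55 to -0.30). Bcl2 itself (chromosome 1, 106538176 to 106714290), best known for long-lived lymphocytes, had only 95.2 expected counts in NT and 112 in IL-4. Its log2 ratio on counts was 0.20, with an interval from -0.20 to 0.62 that included 0, while the FPKM were nearly equal at 1.38 and 1.36. The files list 2 transcripts of Bcl2, and its length weighted over them was 6157 bases in NT and 7209 in IL-4. At this level the lymphocyte genes given above were of like size: the most abundant B cell marker had 2.97 FPKM in NT and 2.30 in IL-4, and the most abundant T cell marker 0.58 and 0.64. Their part in the Bcl2 level was not tested. In bulk RNA, fewer cells of a type and less RNA per cell cannot be told apart.

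Bcl2a1d (chromosome 9, 88723288 to 88731850) had 203 expected counts in NT and 262 in IL-4, or 23.8 and 30.1 FPKM. The log2 ratio was 0.34 (0.07 to 0.61). Because of the sequence shared among the copies, the division of reads behind these values is uncertain. Bcl2a1b (chromosome 9, 89199273 to 89207838), which is not among the 10, had 1255 expected counts in NT and 2791 in IL-4, or 154 and 335 FPKM. It rose by a log2 ratio of 1.13 (interval 1.03 to 1.22) and was called. Bcl2a1a (chromosome 9, 88956920 to 88962416) had 135 and 136 expected counts, and a log2 ratio of -0.02 (-0.37 to 0.34). A sum of expected counts over these copies does not depend on how shared reads were divided among them. A sum of FPKM can, since the length used was 764 bases for Bcl2a1b and 796 for Bcl2a1a and Bcl2a1d. Any reads divided with the related gene Bcl2a1c lie outside both sums.

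Summed over Bcl2a1a, Bcl2a1b and Bcl2a1d, the expected counts were 1593 in NT and 3189 in IL-4, or 193 and 380 FPKM. The sum rose by a log2 ratio of 0.97 (0.89 to 1.06) and passed the thresholds of the call. Bcl2a1b took 78.8% of these counts in NT and 87.5% in IL-4, and Bcl2a1d took 12.8% and 8.23%. The rise in the A1 genes was therefore carried by the reads assigned to Bcl2a1b, while the gene named among the members held the smaller part of the group.

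**Figure D2:**
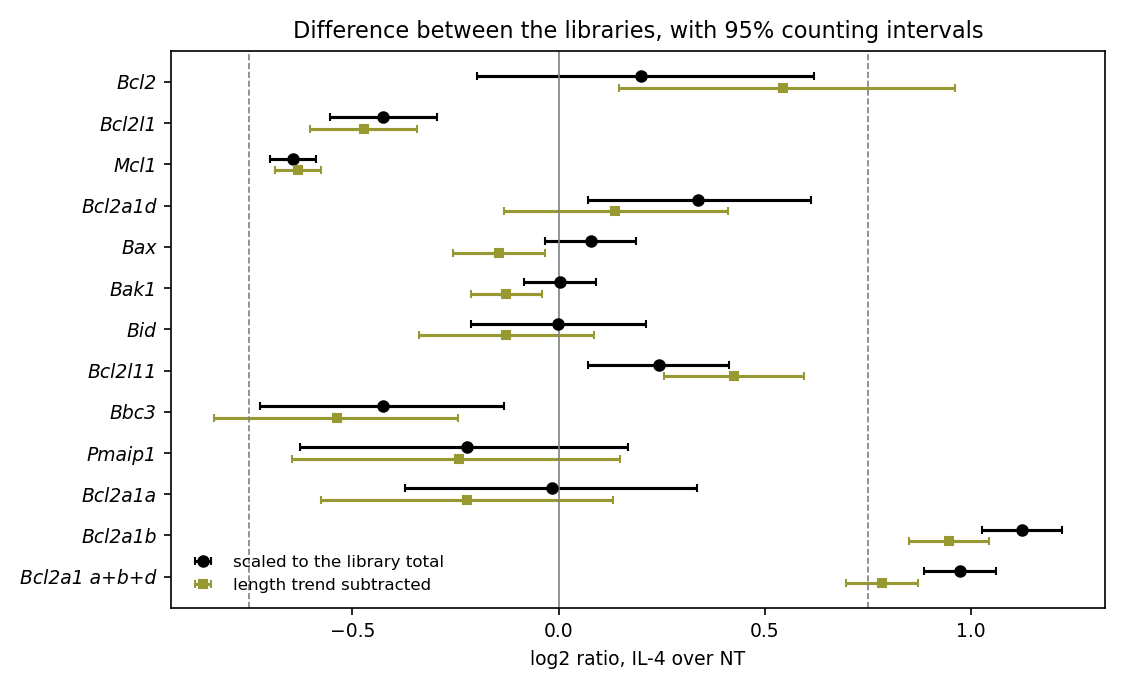
Log2 ratio of IL-4 over NT for the 10 members, for Bcl2a1a and Bcl2a1b, and for the sum of the 3 Bcl2a1 copies, with exact 95% intervals of counting error, scaled to the library total (black circles) or with the length trend subtracted (olive squares). Dashed lines mark ratios of -0.75 and 0.75, and past them lie only Bcl2a1b and the sum of the copies, on the upper side.

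The direction of the survival genes as a group depended on the unit and on whether the copies were included. The 4 survival members summed to 233 FPKM in NT and 169 in IL-4, a ratio of 0.725, and their expected counts scaled to the library total had a ratio of 0.677. With Bcl2a1a and Bcl2a1b added, the sum was 402 and 519 FPKM, a ratio of 1.29. On expected counts the same 6 genes summed to 9333 and 8410, a scaled ratio of 0.884, so that the direction turned per length but not on reads. The transcript length used was 3498 bases for Mcl1 and 796 for Bcl2a1d. Within the larger FPKM sum, Mcl1 held 41.6% in NT and 20.6% in IL-4, whereas the Bcl2a1 copies held 48.0% and 73.3%. Per length, the composition of the survival transcripts thus differed between the libraries, from near parity of Mcl1 and A1 in NT to a majority of A1 in IL-4. These sums describe 1 library each and were not tested.

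**Figure D3:**
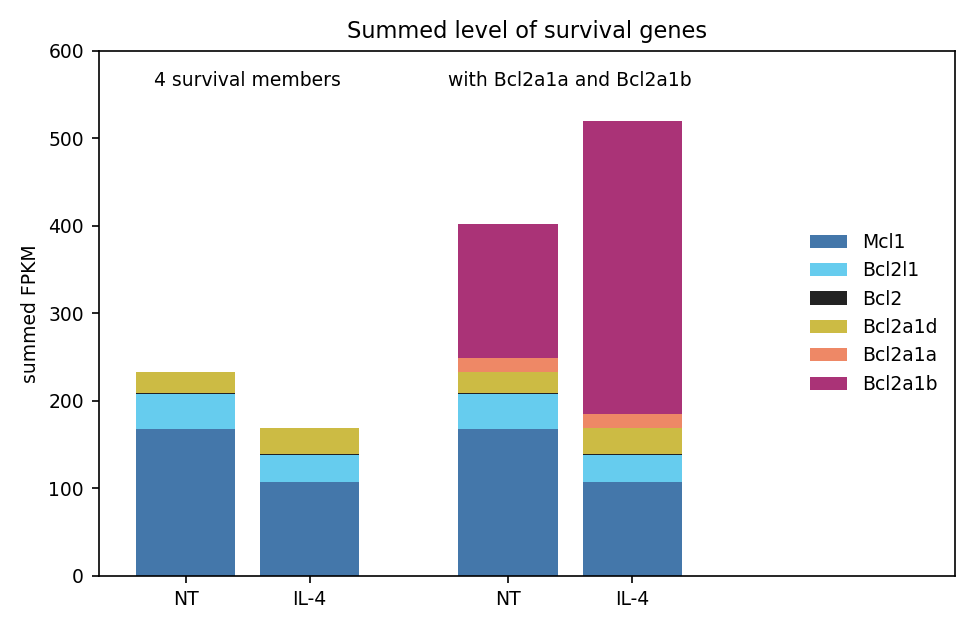
Summed FPKM of survival genes in the NT and IL-4 libraries, stacked by gene, for the 4 survival members (left) and with Bcl2a1a and Bcl2a1b added (right), 1 library per bar. The left pair goes from 233 to 169 FPKM and the right pair from 402 to 519, since the Bcl2a1b segment is larger in IL-4. On expected counts the right pair goes from 9333 to 8410.

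The effectors were abundant and close to equal in the libraries. Bax (chromosome 7, 45461695 to 45466903), which moves from the cytosol to the mitochondrion when activated, had 1277 expected counts in NT and 1374 in IL-4, or 137 and 144 FPKM. Its log2 ratio was 0.08 (-0.03 to 0.19). Bak1 (chromosome 17, 27019812 to 27028627), which resides in the mitochondrial membrane, had 2137 and 2184 expected counts, or 96.0 and 96.2 FPKM. Its log2 ratio was 0.00 (-0.08 to 0.09). Summed, the effectors had 233 FPKM in NT and 240 in IL-4, a ratio of 1.03. Both intervals included 0, and the variation between animals is unknown.

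The BH3-only members did not share a direction. Bid (chromosome 6, 120893119 to 120917062), which caspase-8 cleaves to link death receptors to the mitochondrion, had 361 expected counts in NT and 368 in IL-4, and 17.2 FPKM in both. Its log2 ratio was 0.00 (-0.21 to 0.21). Bcl2l11 (chromosome 2, 128126038 to 128162547) encodes BIM, which is known to rise upon withdrawal of growth factors. It had 519 expected counts in NT and 626 in IL-4, or 9.66 and 11.5 FPKM, and a log2 ratio of 0.24 (0.07 to 0.41). Bbc3 (chromosome 7, 16308398 to 16318334) encodes PUMA, a target of p53, and had 223 and 169 expected counts, or 10.2 and 7.60 FPKM. Its log2 ratio was -0.43 (-0.72 to -0.13). Pmaip1 (chromosome 18, 66458604 to 66465558) encodes NOXA, which binds Mcl1 and A1, and had 116 and 101 expected counts, or 3.93 and 3.37 FPKM. Its log2 ratio was -0.22 (-0.63 to 0.17). Bcl2l11 was thus higher in the IL-4 library beyond counting error and Bbc3 lower, and the 4 genes summed to 41.0 and 39.6 FPKM, a ratio of 0.966, or 1.02 on scaled counts.

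Set against Mcl1, most of the death genes and effectors took a larger part in the IL-4 library. Any gene with a ratio above that of Mcl1 does so, and Mcl1 had the lowest ratio of the members. Of the genes with at least 200 reads, only 8.01% had a ratio as low or lower. The values for Bid and Bak1, close to equal in the libraries, thus restate the lower Mcl1. The FPKM of Bcl2l11 over that of Mcl1 was 0.0577 in NT and 0.107 in IL-4, which is 1.85 times as large (95% counting interval 1.63 to 2.09). The same ratio of ratios was 1.65 for Bax (1.51 to 1.80), 1.57 for Bak1 (1.46 to 1.68), 1.56 for Bid (1.34 to 1.82) and 1.33 for Pmaip1 (1.01 to 1.76). For Bbc3 it was 1.16, with an interval from 0.94 to 1.43 that included 1. All 6 share the Mcl1 value, so they are not separate observations, and no Bcl2a1 copy enters them.

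Ratios between these libraries also moved with transcript length, so each was compared with genes of like length. For each gene, the length trend was taken as the median log2 ratio over the 200 genes closest to it in length, drawn from the genes with at least 200 reads. It was 0.20 at the length of Bcl2a1d, 0.22 at that of Bax, -0.01 at that of Mcl1, -0.18 at that of Bcl2l11 and -0.34 at that of Bcl2. With the trend subtracted, Mcl1 stood at -0.63, Bcl2l1 at -0.47 and Bbc3 at -0.54, close to their values above. Bcl2l11 moved to 0.43 (interval 0.26 to 0.60). Bcl2, on counts, moved to 0.54 (0.15 to 0.96), an interval clear of 0. That value depends on the unit, since the log2 ratio of the Bcl2 FPKM was -0.02 before any subtraction. These intervals also take the trend as exact. Bax became -0.15 (-0.26 to -0.03) and Bak1 -0.13 (-0.21 to -0.04), so that both effectors turned below 0. Bid at -0.13 and Pmaip1 at -0.24 had intervals that still included 0. Bcl2a1d became 0.14, with an interval from -0.13 to 0.41 that included 0, whereas the summed copies remained at 0.78 (0.70 to 0.87). On counts, 7 of the 10 intervals then excluded 0, 2 above and 5 below, against 51.8% of the genes with at least 200 reads. The cause of the trend was not tested.

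**Figure D4:**
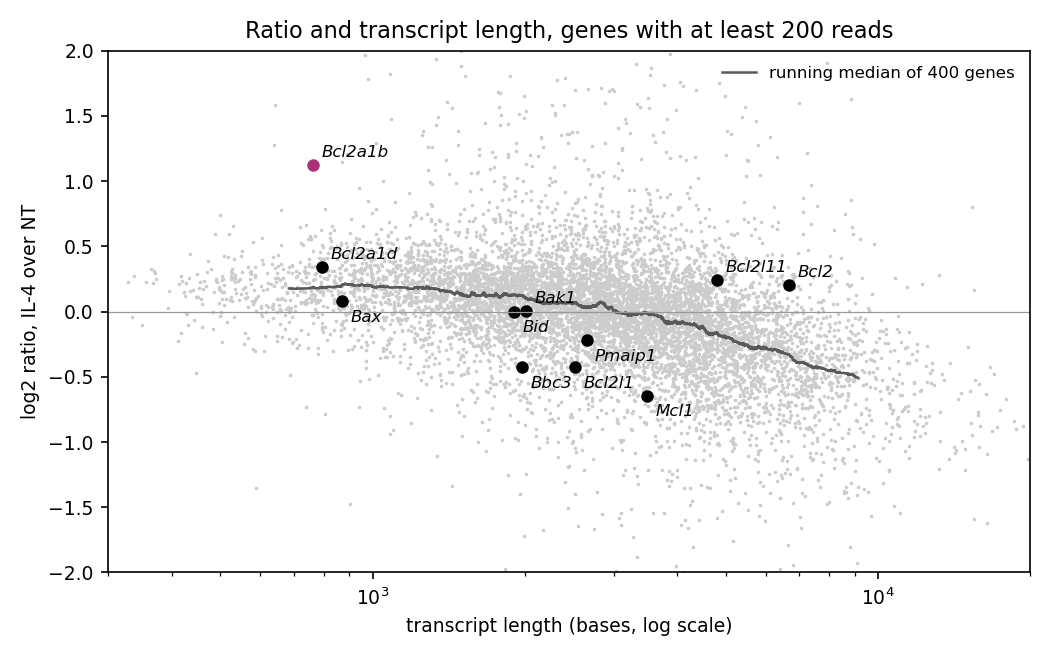
Log2 ratio of IL-4 over NT against transcript length in bases (log axis) for genes with at least 200 reads (grey, 68 lie outside the axes), with their running median over 400 genes (line), the 10 members (black) and Bcl2a1b (purple). The median slopes from above 0 at short lengths to below 0 at long ones, with Mcl1, Bcl2l1 and Bbc3 under it and Bcl2 and Bcl2l11 above it.

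The promoters of the family were searched for the letters to which Stat6 is known to bind, a TTC and a GAA arranged as a palindrome. RefSeq promoters of GRCm38, from 250 bases before to 50 after each start, were read on both strands. They covered 9 members and Bcl2a1a and Bcl2a1b, 16 windows in all. No window of the other member, Pmaip1, entered the search. TTC and GAA set apart by any 4 bases, the spacing that Stat6 prefers, were present in 1 of the 16 and in 6.95% of all 32851 promoters. The same letters set apart by 3 bases, the spacing of other STAT proteins, were present in 0 of the 16 and in 8.30% of all. The match lies at one of the 3 starts of Bcl2l1 and begins 4 bases before it. It is shown with 50 bases before and 20 after that start (minus strand, chr2:152828470-152828539), with the match in capitals.
Bcl2l1 promoter: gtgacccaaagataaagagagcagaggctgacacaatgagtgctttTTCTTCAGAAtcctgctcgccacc
A match is a run of letters and not a bound site. No match was present in the windows of the Bcl2a1 copies, and sites farther from a start lie outside this search.

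Other genes of the pathway were described from 7 lists of 71 genes. Of these, 66 could be tested, of which 5 were called higher and 5 lower, beside the 4.07% and 6.28% over all genes, and 56 were not called. Their median log2 ratio was -0.01, against -0.03 over all genes tested. Bcl2l10, Fasl, Trp63 and Trp73 were in neither table, and Bcl2l16 was not matched to an identifier.

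Among relatives of the members, 1 of 4 other survival genes tested was called, which was Bcl2a1b. None of 5 other effectors and relatives was called. The most abundant of them, Bcl2l13, a mitochondrial protein that also acts in mitophagy, was at 7.46 FPKM in NT and 7.45 in IL-4. Of 6 other BH3-only and BNIP3-type genes, 1 was called. This was Bmf, a BH3-only gene whose protein is sequestered on the cytoskeleton, which had 97 expected counts in NT and 40 in IL-4, or 1.87 and 0.76 FPKM. It fell by a log2 ratio of -1.30 (-1.88 to -0.76). Bmf was thus the only death gene of the extended family past the thresholds, at a level under 2 FPKM in both libraries. With 1 added to FPKM its ratio was -0.71 and its call was lost.

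Downstream of the mitochondrion, 2 of 14 apoptosome, caspase and release genes were called higher and 0 lower. Casp6, an executioner caspase, had 140 expected counts in NT and 374 in IL-4, or 8.66 and 22.7 FPKM, and rose by a log2 ratio of 1.39 (1.11 to 1.68). Cycs, which encodes cytochrome c, rose from 766 to 1324 expected counts, and its log2 ratio of 0.76 (0.63 to 0.89) lay just past the threshold. The call of Cycs was lost at 0.74 without the 100 most abundant genes in the total and at 0.73 with 1 added to FPKM. Of 7 caspase inhibitor genes, 0 were called higher and 2 lower. Naip2, better known as a sensor of bacterial proteins, fell from 1118 to 626 expected counts, with a log2 ratio of -0.86 (-1.01 to -0.72). It became -0.68 with the length trend subtracted, short of the threshold, and it has close relatives between which reads may have been divided. Birc6, a very large ubiquitin ligase, fell from 1541 to 923, a log2 ratio of -0.77 that became -0.17 with the length trend subtracted. Its call was also lost under other scalings of the libraries, given below.

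In the death receptor arm, 1 of 11 genes tested was called. Tnf, the inflammatory ligand of the TNF receptors, had 99 expected counts in NT and 44 in IL-4, or 5.45 and 2.39 FPKM, and fell by a log2 ratio of -1.19 (-1.74 to -0.67). Among 19 tested genes that control the abundance of members, 2 were called higher and 1 lower. Myc, a growth regulator that also primes cells for apoptosis, rose from 102 to 313 expected counts, with a log2 ratio of 1.59 (1.26 to 1.93). Ddit3, which encodes the stress factor CHOP, a known activator of Bcl2l11 and Bbc3, rose from 436 to 984, a log2 ratio of 1.15 (0.98 to 1.31). Pim2, a survival kinase, fell from 65 to 35 expected counts, with a log2 ratio of -0.91 (-1.56 to -0.31). Its call was lost at -0.62 with 1 added to FPKM, and in other settings given below.

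**Figure D5:**
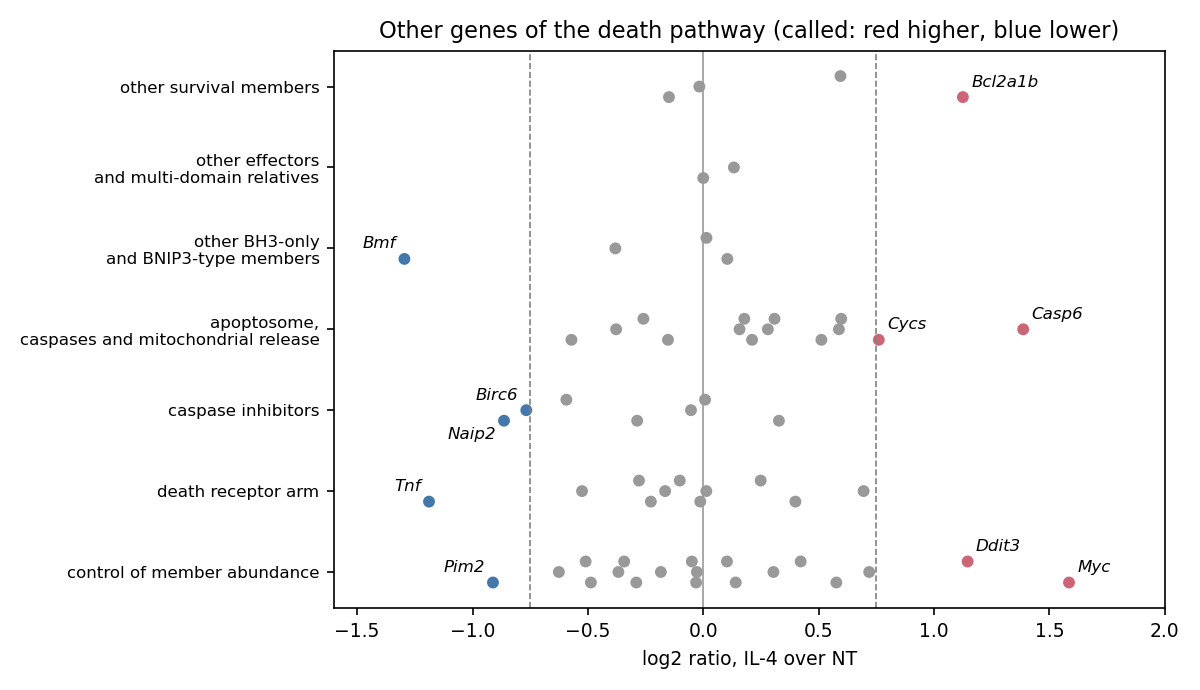
Log2 ratio of IL-4 over NT for the 61 other pathway genes with at least 20 reads over both libraries, 1 point per gene, in 7 lists, with genes called higher in red, genes called lower in blue and dashed lines at -0.75 and 0.75. Most points lie between the lines, with Myc at 1.59 the highest and Bmf at -1.30 the lowest.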

How the data were processed

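Total RNA was sequenced on an Illumina HiSeq, per the labels. The authors aligned the reads to mm10 (GRCm38) by Bowtie, and RSEM gave the gene values (versions not given in the sources used here). The deposited tables hold expected counts, which are estimated reads per gene that need not be whole, FPKM values scaled by the authors for length and depth, and a weighted transcript length. Whole values made up 77.6% (NT) and 77.8% (IL-4) of the expected counts. A gene absent from a table was set to 0. Symbols were matched for 15587 of 15623 genes through RefSeq (GRCm38).

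Log2 ratios of IL-4 over NT used expected counts scaled to the library total, with 0.5 count added. Counts were rounded for an exact two-sided conditional binomial test, with BH adjustment over 15593 genes (30 rounded to 0 in both libraries). Calls used the thresholds of the study. Intervals are Clopper-Pearson for ratios and exact Poisson for FPKM, at 95%. The members and lists were chosen with earlier results of these data known. All members, every called gene of a pathway list and, where a list had none, its most abundant gene are named, as are the copies of Bcl2a1. Alternatives were scaling by TMM (edgeR 4.0.16) or by median of ratios (DESeq2 1.42.0), leaving the 100 top genes out of the total, adding 0.1 or 1 to FPKM, the edgeR exact test at coefficients of variation set to 0.1, 0.2 or 0.4, other thresholds, a minimum of 10 reads, and the length trend. The procedure was tested on simulated data. Python 3.11.15, scipy 1.17.1 and R 4.3.3 were used.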

Additional observations from a re-analysis of the deposited data

How the results depend on the processing

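No paired analysis was possible because NT and IL-4 had 1 library each, and for the same reason no replicate could be left out. Over 12 alternatives, 112 of 120 comparisons of member ratios kept their direction and their side of the thresholds. The set coefficients of variation, the higher limit on the log2 ratio and the minimum of reads left every member ratio unchanged. No member had reached the threshold on size, so these settings could turn no sign and add no call. Their comparisons were fixed in advance, and only the other alternatives tested the members. Mcl1 was called lower with a fold change over 1.5, which made 1 member called lower in place of 0. The sign turned for Bcl2 to -0.0196 with 0.1 added to FPKM and -0.0122 with 1 added, for Bax to -0.15 and Bak1 to -0.13 with the length trend subtracted, for Bak1 to -0.0160 without the 100 most abundant genes, and for Bid to 0.0367 with TMM and 0.0277 with median-of-ratios scaling. The sum of the Bcl2a1 copies was past the thresholds at 0.97, where Bcl2a1d at 0.34 was not. Of the pathway genes, 5 were called higher, but 0 at a coefficient of variation set to 0.4 and 9 with a fold over 1.5. The 5 called lower became 4 with TMM or median-of-ratios scaling and 3 with the length trend subtracted. They became 2 with FPKM plus 1, 2 with a coefficient of 0.2, 0 with 0.4, and 2 when log2 ratios had to reach 1. Birc6 lost its call with TMM, at -0.73, and with median-of-ratios scaling, at -0.74. It also did so with FPKM plus 1, with a coefficient of 0.2, when the log2 ratio had to reach 1 and with the length trend subtracted. Cycs also lost its call without the 100 most abundant genes, with FPKM plus 1, with a coefficient of 0.2 and when the log2 ratio had to reach 1. All 10 called pathway genes lost the call with 0.4. Over all genes tested, 635 were called higher and 979 lower, against 391 and 399 with FPKM plus 1, 390 and 423 with a coefficient of 0.2, 65 and 8 with 0.4, and 408 and 476 when the ratio had to reach 1. The variation between animals is unknown, so which coefficient fits these libraries was not tested.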

Other observations

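The Bcl2a1 copies also share sequence around their starts. Of the 31-base words in the promoter window of Bcl2a1b, from 250 bases before to 50 after the start, 60.7% also occurred in that of Bcl2a1a and 44.1% in that of Bcl2a1d. Another gene of the group, Bcl2a1c, was chosen for mention after its values were seen. It had 10.6 expected counts in NT and 16.5 in IL-4, or 2.31 and 3.54 FPKM, and its log2 ratio was 0.59 (95% counting interval -0.58 to 1.84). With it, the summed level of the Bcl2a1 genes was 195 FPKM in NT and 384 in IL-4, a ratio of 1.96.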
